A study of Mus musculus with 8 samples.

Results

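The interleukin 6 family and its transcription factor STAT3 were followed as 10 genes in mouse CT26 tumors under 4 treatments. The genes were taken by name, and every mouse probe of the array that carried 1 of these gene names was a member, which gave 21 of 56567 probes. Of these 21 probes, 17 were bright enough to be tested, among 31912 tested probes with 21497 gene names. The 4 that were not tested, the second probe of Osm and the third of Il6st, Osmr and Stat3, stood above background on 0 to 2 of the 8 arrays. Each of the 10 genes is described by its brightest tested probe. That probe was well above background on all 8 arrays for each of the 10 genes. The genes fall into the ligands Il6, Il11, Lif and Osm, the receptor chains Il6ra, Il6st, Lifr and Osmr, the transcription factor Stat3 and the inhibitor Socs3.

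As background, cytokines of this family signal through a receptor complex that contains the shared chain gp130, the product of Il6st. The complex activates Janus kinases, which phosphorylate STAT3, and STAT3 enters the nucleus and turns on its target genes. SOCS3 is induced by this pathway and blocks the kinases at gp130, which closes a feedback loop. In colorectal tumors the pathway is known for promoting the growth of tumor cells and for restraining immune cells, and prostaglandin E2 is known to raise IL-6 in many cell types through cAMP. An array measures mRNA only, so phosphorylation of STAT3 was not measured.

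CT26 cells come from a colon carcinoma of the BALB/c mouse strain. All groups, vehicle included, consisted of subcutaneous tumors grown from 500000 implanted CT26 cells in BALB/c mice with an intact immune system, taken after 2 weeks of treatment. The vehicle group received no active agent. The TP-16 group received TP-16, called BY001 in the sample labels, an antagonist of the prostaglandin E2 receptor EP4, at 75 mg/kg by mouth every day. The anti-PD-1 group received 50 µg of antibody against the T-cell inhibitory receptor PD-1 into the peritoneum, in 2 doses a week, and the combination group received both agents. The labels give no age or sex for the mice. The methods name female mice and give a range of young adult age for the purchased mice. They add set ages for some other models but none for the mice of the arrays. Neither the labels nor the methods say whether a sample was 1 tumor or a pool. Each group had 2 biological replicates on 1 array each (n = 2), and with so few arrays each estimate has a wide margin.

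All 8 arrays lay on 1 slide, with both antibody groups in row 2 and both TP-16 groups in columns 3 and 4, so slide position and treatment cannot be told apart. The 75th percentile of the intensity on an array ranged from 371 to 378 in vehicle and from 607 to 734 in the combination. Levels are therefore given as log2 intensity minus the log2 of this percentile, and differences between groups are on the same log2 scale. On this scale the difference between combination and vehicle had a median of -0.20 over all tested probes, after quantile normalization of -0.01, and without any scaling of 0.63. Of the probes past the adjusted threshold for the combination, 2904 were higher and 7313 lower, against 4018 and 4080 after quantile normalization. The vehicle arrays lay farthest from each other, with an SD of the difference over tested probes of 0.68 against 0.42 to 0.53 in the other groups. Of the 10 epithelial markers, Epcam, Vil1, Cdx1 and Muc2 were not bright enough to be tested, although the labels name a colorectal tumor. A change in a bulk tumor can come from fewer cells of a type or from less RNA per cell, which cannot be told apart here.

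With the combination, 3 of the 4 ligands were lower than in vehicle, and Stat3 and 3 of the 4 receptor chains were higher. Against vehicle, limma called 7 of the 10 genes at an adjusted p of at most 0.05, beside 32% of all tested probes. Il6, Il11 and Lif fell, and Il6ra, Il6st, Lifr and Stat3 rose. With the probes of a gene averaged, only the 3 falls were called, and a limma fit of the compared groups alone called 0 genes. The median difference over the 10 genes was 0.46, beside -0.20 over all tested probes. The study's methods ask for a 2-fold difference and an unadjusted p at or under 0.05 from a test on each probe alone, called the methods' t-test here. With limma's p in its place, which is what the methods' threshold means below, Lifr was higher and Il6, Il11 and Lif were lower, 4 of 10 genes beside 15.3% of all tested probes. With the p of the methods' t-test itself, Lifr and Il11 passed, 2 of 10 genes beside 7.07%. At an unadjusted limma p at or under 0.05 there were 9 genes (all but Osm), beside 46.2%. Neither single agent moved any of the 10 genes past the adjusted threshold, although for TP-16 normexp background correction called Il6, Il11 and Lif (lower) and trended and robust moderation called Il11 (lower).

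**Figure D1:**
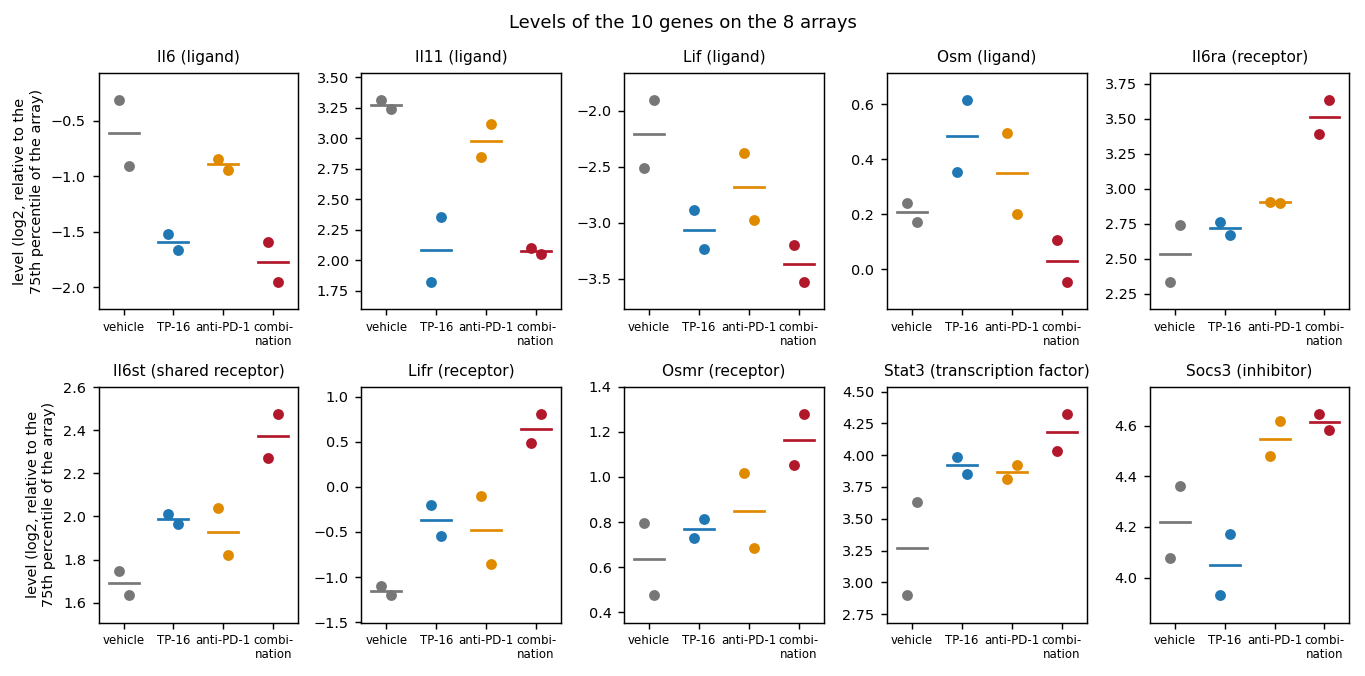
Level of each of the 10 genes on the 8 arrays, as log2 intensity relative to the 75th percentile of the array, by treatment group. Points are single arrays (replicate 1 on the left) and lines are group means of 2 arrays. The combination arrays lie below both vehicle arrays for Il6, Il11, Lif and Osm and above both for the other 6 genes. This includes Osm, Osmr and Socs3, which did not pass the adjusted threshold. The share of all tested probes with such a separation was not counted.

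Il6 encodes interleukin 6, the founding cytokine of the family. Its level was -0.32 and -0.90 on the vehicle arrays, -0.84 and -0.95 with anti-PD-1, -1.52 and -1.67 with TP-16, and -1.59 and -1.95 with the combination. All 4 arrays from mice given TP-16 lay below all 4 arrays from mice without it. The anti-PD-1 arrays overlapped with vehicle. In the combination Il6 fell by 1.16 on the log2 scale (SE 0.23, a 2.24-fold change, adjusted p = 0.0175). A dimmer probe of Il6 fell by 1.04 (SE 0.15, adjusted p = 0.0109), and on it both anti-PD-1 arrays lay below vehicle. With TP-16 alone the brighter probe differed by -0.98 (SE 0.23), at an unadjusted limma p of 0.00536 and an adjusted p of 0.0933. The main Il6 probe lies at chr5:30346367-30346426 in the mm9 build. The array annotation used here gives positions and transcripts but not exons or untranslated regions.

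Il11 encodes interleukin 11, which signals through gp130 with its own receptor chain and is known from fibroblasts and gastrointestinal tumors. Its level was 3.31 and 3.24 on the vehicle arrays, 2.85 and 3.11 with anti-PD-1, 1.82 and 2.35 with TP-16, and 2.10 and 2.05 with the combination. As for Il6, every array with TP-16 lay below every array without it, and here the anti-PD-1 arrays also lay below both vehicle arrays. Il11 fell by 1.20 in the combination (SE 0.20, 2.30-fold, adjusted p = 0.0122). With TP-16 alone the difference was almost as large, -1.19 (SE 0.20, 2.28-fold), but its adjusted p was 0.0791 (0.0292 with normexp and 0.0304 with trended and robust moderation). It was the 1 gene of the 10 past the methods' threshold for TP-16, beside 6.18% of all tested probes, and with the methods' t-test it was also the 1 gene, beside 1.65%. With anti-PD-1 alone the difference was -0.29 (95% confidence interval -0.78 to 0.19). The probe of Il11 maps to chr7:4724847-4724906 in mm9.

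Lif encodes leukemia inhibitory factor, which binds LIFR and gp130. Its level was -2.51 and -1.91 on the vehicle arrays, -2.38 and -2.98 with anti-PD-1, -2.89 and -3.23 with TP-16, and -3.20 and -3.53 with the combination. Both combination arrays and both TP-16 arrays lay below vehicle, while the anti-PD-1 arrays spread across the range of vehicle and of TP-16. Lif fell by 1.15 in the combination (SE 0.30, 2.23-fold, adjusted p = 0.0341), and after quantile normalization the difference of -0.91 had an adjusted p of 0.0511. With TP-16 alone it was -0.85 (adjusted p = 0.155). The Lif probe is at chr11:4172032-4172091 in mm9. It was the dimmest of the main probes, with unscaled intensities of 65.2 and 100.6 in vehicle and 66.1 and 63.6 in the combination.

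Osm encodes oncostatin M, a product mainly of macrophages, neutrophils and T cells, and it did not move with the other 3 ligands. Its level was 0.24 and 0.17 on the vehicle arrays, 0.35 and 0.61 with TP-16, 0.49 and 0.20 with anti-PD-1, and 0.10 and -0.05 with the combination. Both TP-16 arrays lay above vehicle and both combination arrays below it. The combination differed from vehicle by -0.18 (95% confidence interval -0.56 to 0.20, adjusted p = 0.407) and from TP-16 by -0.46 (adjusted p = 0.176). The departure from additivity, the difference of the combination from vehicle less the sum of those of both single agents, was -0.60 for Osm (SE 0.22). Its unadjusted limma p was 0.0355, the lowest of the 10 genes, and its adjusted p was 0.641. Without scaling Osm was higher in the combination by 0.66, close to the 0.63 by which the median of all tested probes was higher. Its probe maps to chr11:4140873-4140932 in mm9.

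The promoters of the 3 ligands that fell are shown because they moved together, and that of Socs3 because its gene is a direct STAT3 target. RefSeq promoters of the GRCm38.p6 assembly were found for 9 of the 10 genes (all but Osm), 11 start sites in all. The 250 bases before each start were searched on both strands for the motifs AP-1 (TGANTCA), CRE (TGACGTCA), C/EBP (TTGCNNAA), STAT (TTCNNNGAA) and NF-kB (its usual consensus). Capitals mark the matches, and each sequence runs 5′ to 3′ on the strand of its gene and ends at the base before the start.
Il6, chr5:30012864-30013113, plus strand: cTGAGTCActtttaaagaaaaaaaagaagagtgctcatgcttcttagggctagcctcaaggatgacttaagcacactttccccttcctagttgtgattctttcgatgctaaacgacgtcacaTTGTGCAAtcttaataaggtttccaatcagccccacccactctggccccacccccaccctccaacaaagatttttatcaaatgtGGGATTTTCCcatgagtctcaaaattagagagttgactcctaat
Il11, chr7:4778142-4778391, minus strand: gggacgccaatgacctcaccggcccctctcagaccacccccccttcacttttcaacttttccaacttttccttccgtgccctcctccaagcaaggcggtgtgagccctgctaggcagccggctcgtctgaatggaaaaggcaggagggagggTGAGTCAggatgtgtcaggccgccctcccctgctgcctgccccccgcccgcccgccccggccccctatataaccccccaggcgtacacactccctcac
Lif, chr11:4257318-4257567, plus strand: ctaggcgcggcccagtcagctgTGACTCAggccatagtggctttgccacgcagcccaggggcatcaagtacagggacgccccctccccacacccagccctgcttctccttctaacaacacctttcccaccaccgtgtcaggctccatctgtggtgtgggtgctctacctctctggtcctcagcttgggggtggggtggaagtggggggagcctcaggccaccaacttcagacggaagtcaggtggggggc
Socs3, chr11:117969367-117969616, minus strand: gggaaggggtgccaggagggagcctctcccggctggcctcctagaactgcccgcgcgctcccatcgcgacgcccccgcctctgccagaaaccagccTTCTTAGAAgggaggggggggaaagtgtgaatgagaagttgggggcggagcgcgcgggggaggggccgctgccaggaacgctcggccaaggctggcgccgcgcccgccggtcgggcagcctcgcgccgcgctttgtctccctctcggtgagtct
The AP-1 motif was found in 3 of the 11 windows, those printed for Il6, Il11 and Lif, and in 6.75% of the 32851 windows of the whole table. In Il6 it lay 249 to 243 bases before the start, in Il11 98 to 92 and in Lif 228 to 222. The Il6 window also held a C/EBP match (9.56% of all windows) and an NF-kB match (3.9%), and no match overlapped another. A STAT match was found for Socs3, 154 to 146 bases before its start, and in 7.02% of all windows. The exact CRE motif was in 0 of the 11 windows and in 1.55% of all. The Il6 window held cgacgtca, which differs from it in the first base, and such near matches were not searched for. A second start of Il11 held none of the motifs, nor did the windows of the receptors and Stat3. These matches describe the letters of the windows, and binding was not measured.

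Il6ra encodes the private receptor chain of interleukin 6, which is found mainly on leukocytes and liver cells. Its level was 2.33 and 2.74 on the vehicle arrays, 2.76 and 2.67 with TP-16, 2.90 and 2.90 with anti-PD-1, and 3.39 and 3.63 with the combination. Both combination arrays stood above the other 6 arrays. Both anti-PD-1 arrays lay above the vehicle and TP-16 arrays, and TP-16 overlapped with vehicle. Il6ra rose by 0.98 (SE 0.17, 1.97-fold, adjusted p = 0.0132). A much dimmer probe, below background on vehicle replicate 1, differed by 0.72 (adjusted p = 0.205), and after quantile normalization by 1.22 (adjusted p = 0.0327). The combination lay above TP-16 alone by 0.79 (adjusted p = 0.130) and above anti-PD-1 alone by 0.61 (adjusted p = 0.106). The brighter probe is at chr3:89674054-89674113 in mm9.

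Il6st encodes gp130, the chain shared by the whole family and present on most cells. Its level was 1.75 and 1.63 on the vehicle arrays, 2.04 and 1.82 with anti-PD-1, 2.01 and 1.97 with TP-16, and 2.27 and 2.48 with the combination. Every treated array lay above both vehicle arrays, and both combination arrays were the highest. Il6st rose by 0.68 (SE 0.13, 1.61-fold, adjusted p = 0.0170). A dimmer probe for the same transcript differed by only 0.14 (95% confidence interval -0.38 to 0.66, adjusted p = 0.639), and after quantile normalization by 0.40 (adjusted p = 0.0903). The brighter probe lies at chr13:113296586-113296645 in mm9.

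Lifr encodes the receptor chain for LIF, which oncostatin M also uses in some settings. Its level was -1.10 and -1.20 on the vehicle arrays, -0.10 and -0.85 with anti-PD-1, -0.20 and -0.55 with TP-16, and 0.48 and 0.81 with the combination. All 6 treated arrays lay above vehicle, and the combination arrays were again the highest. With a rise of 1.80 (SE 0.28, 3.48-fold, adjusted p = 0.0113) Lifr had the largest difference of the 10 genes in the combination, by brightest probe. It was also the 1 gene past the methods' threshold, by limma's p, in the combination against TP-16 (1.02, 2.03-fold, adjusted p = 0.144) and against anti-PD-1 (1.12, 2.17-fold, adjusted p = 0.0896). With the methods' t-test 0 genes passed in either. Its brightest probe maps to chr15:7147319-7147378 in mm9. The other probes of Lifr did not pass on this scale. The mean of its tested probes differed by 0.98 (limma adjusted p = 0.0762), a smaller difference than that of Il11 (-1.20). The probe annotated to a different transcript (NM_001113386) differed by 0.08 (95% confidence interval -1.01 to 1.17). The third, for the same transcript as the brightest, differed by 1.07 (adjusted p = 0.130), and after quantile normalization by 1.63 (adjusted p = 0.0382).

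Osmr encodes the oncostatin M receptor chain, found on fibroblasts, endothelial cells and epithelium. Its level was 0.79 and 0.48 on the vehicle arrays, 0.73 and 0.81 with TP-16, 1.02 and 0.68 with anti-PD-1, and 1.05 and 1.28 with the combination. The combination arrays were the highest, and the single agents overlapped with vehicle. The difference of the combination from vehicle was 0.53 (95% confidence interval 0.09 to 0.97, adjusted p = 0.0675). The probe lies at chr15:6763686-6763745 in mm9, and the second tested probe of Osmr, above background on 5 of 8 arrays, had an interval of -2.88 to 3.26.

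Stat3 encodes the transcription factor through which the family acts. Its level was 2.90 and 3.64 on the vehicle arrays, 3.82 and 3.93 with anti-PD-1, 3.99 and 3.86 with TP-16, and 4.04 and 4.33 with the combination. All 6 treated arrays lay above vehicle, and vehicle replicate 1 lay farther below vehicle replicate 2 than any treated array lay from its partner. Stat3 rose by 0.91 in the combination (SE 0.25, 1.88-fold, adjusted p = 0.0419). Without vehicle replicate 1 the difference was 0.55 with an adjusted p of 0.0754. A dimmer probe, annotated to another transcript (NM_011486), differed by 0.59 (adjusted p = 0.193), and after quantile normalization by 0.86 (adjusted p = 0.0450). With the single agents the difference from vehicle was similar, 0.66 for TP-16 (adjusted p = 0.181) and 0.60 for anti-PD-1 (adjusted p = 0.356). Without vehicle replicate 1 these were 0.29 and 0.24. The probe lies at chr11:100749598-100749657 in mm9.

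Socs3 encodes the feedback inhibitor of gp130 and is often read as a sign of STAT3 activity. Its level was 4.08 and 4.36 on the vehicle arrays, 3.93 and 4.17 with TP-16, 4.48 and 4.62 with anti-PD-1, and 4.65 and 4.58 with the combination. The 4 arrays with the antibody lay above the 4 arrays without it. The difference of the combination from vehicle was 0.40 (SE 0.15, adjusted p = 0.0911), and after quantile normalization it was 0.64 with an adjusted p of 0.0216. With TP-16 alone Socs3 lay -0.17 from vehicle (95% confidence interval -0.54 to 0.20), and TP-16 lay -0.50 from anti-PD-1 (adjusted p = 0.524). Its single probe lies at chr11:117827480-117827539 in mm9.

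**Figure D2:**
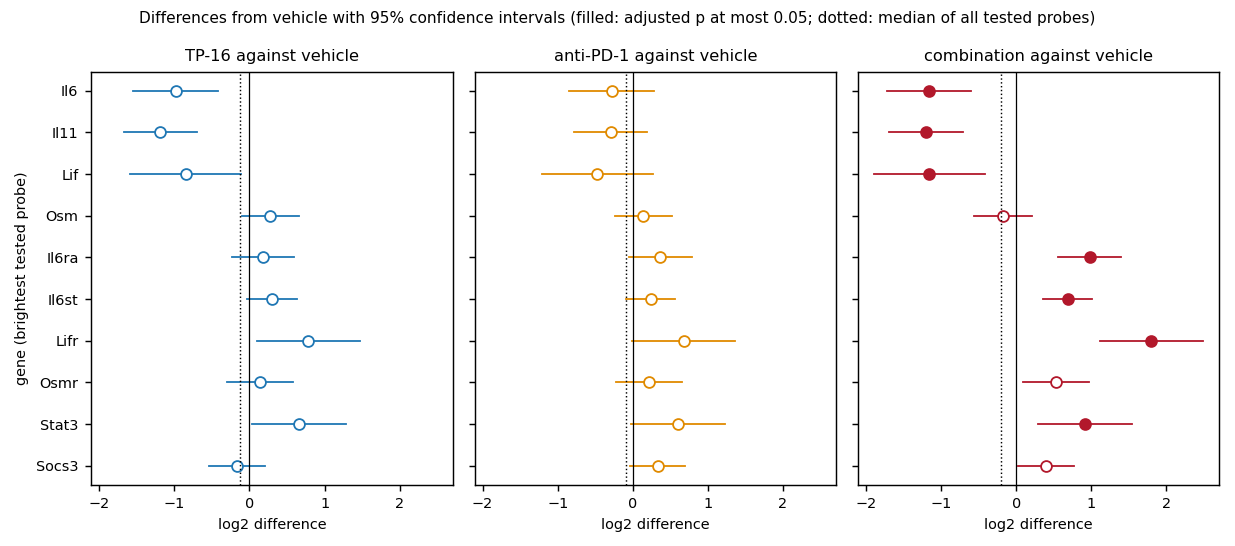
Difference of each treatment from vehicle for the 10 genes, on the log2 scale. Points are limma estimates, horizontal lines are 95% confidence intervals, filled points have an adjusted p of at most 0.05, and the dotted line is the median of all tested probes. Only the panel of the combination holds filled points, 3 to the left of 0 (Il6, Il11 and Lif) and 4 to the right (Il6ra, Il6st, Lifr and Stat3).

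The single agents were compared on the same genes. At the adjusted threshold limma called 0 of 10 for TP-16, beside 0.0533% of all tested probes, and 0 of 10 for anti-PD-1, beside 0.0721%. At an unadjusted p at or under 0.05 there were 5 genes for TP-16 (Lifr and Stat3 higher, Il6, Il11 and Lif lower) and 0 for anti-PD-1, beside 25.9% and 14.5% of all tested probes. The methods' t-test gave 2 and 0 genes at the unadjusted p and 0 after adjustment for both agents. At the methods' threshold 0 genes passed for anti-PD-1, beside 3.83% of all tested probes, and 0 with the methods' t-test, beside 0.949%. The direct comparison of TP-16 with anti-PD-1 gave 0 of 10 genes at either threshold (0.0188% and 1.55% of all tested probes), with 3 genes at an unadjusted p at or under 0.05, beside 8.71%. At the fold and p of the methods' t-test there were 0, beside 0.617%. The 3 genes were Il6 (-0.70, adjusted p = 0.537), Il11 (-0.89, adjusted p = 0.421) and Socs3, all lower with TP-16.

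The combination was next compared with each agent alone. At the adjusted threshold limma called 0 of 10 genes against TP-16 (0% of all tested probes) and 0 of 10 against anti-PD-1 (0.0157%), and the methods' t-test also called 0 after adjustment in both. At the methods' threshold, with limma's p, the 1 gene in each comparison was Lifr, beside 4.34% and 4.27% of all tested probes. With the methods' t-test there were 0 genes in each, beside 1.63% and 1.83%. At an unadjusted limma p at or under 0.05 there were 5 genes in each, beside 22.3% and 26.2% of all tested probes. Against TP-16 these were Osm (lower) and Il6ra, Il6st, Lifr and Socs3 (higher). Against anti-PD-1 they were Il6 and Il11 (lower) and Il6ra, Il6st and Lifr (higher). For Il11 the combination differed from TP-16 by -0.01 (95% confidence interval -0.50 to 0.47) and from anti-PD-1 by -0.91 (-1.39 to -0.42, adjusted p = 0.0760). For Il6 the same differences were -0.18 (-0.74 to 0.38) and -0.88 (-1.44 to -0.32, adjusted p = 0.0959). The departure from additivity passed for 0 of 10 genes at either threshold, beside 0% and 3.2% of all tested probes, and at an unadjusted p at or under 0.05 for Osm alone, beside 7.32%.

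The order of the group means set the genes apart. Il6, Il11 and Lif were lowest in the combination, then TP-16, then anti-PD-1, and highest in vehicle. Il6st, Lifr and Stat3 ran in exactly the opposite order. Il6ra and Osmr were also lowest in vehicle and highest in the combination, with TP-16 below anti-PD-1. Socs3 was lowest with TP-16 and highest in the combination. None of the neighbours in these orders differed at the adjusted threshold.

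**Figure D3:**
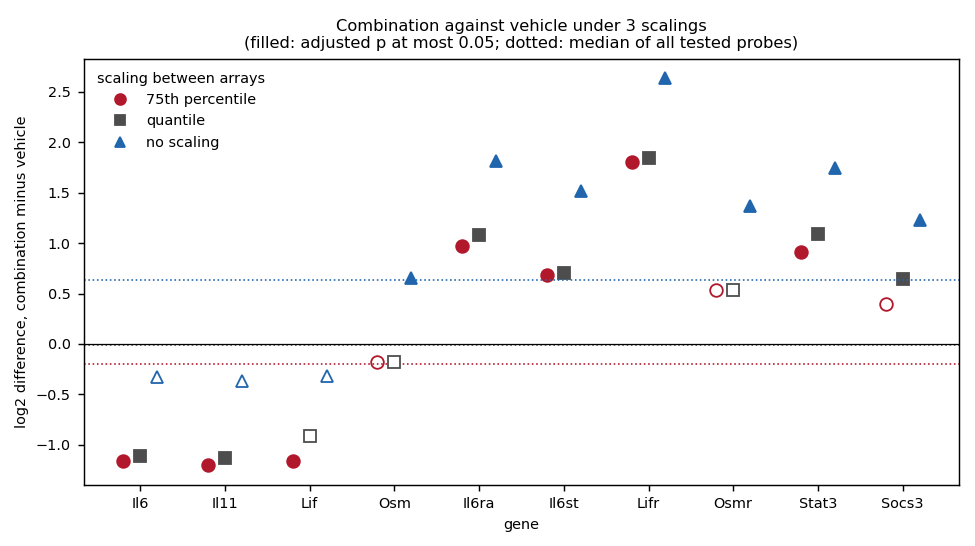
Difference between combination and vehicle for the 10 genes on the log2 scale, under the 75th percentile (circles), quantile normalization (squares) and no scaling between arrays (triangles). Filled symbols have an adjusted p of at most 0.05, and dotted lines are the medians of all tested probes under each scaling. Without scaling the 3 ligands lie between -0.37 and -0.32 with open symbols and 7 genes lie above 0 with filled ones.

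Since the combination arrays were brighter, the scaling bore on the ligands. On the unscaled intensities Il6 differed from vehicle by -0.33 (adjusted p = 0.213), Il11 by -0.37 (adjusted p = 0.222) and Lif by -0.32 (adjusted p = 0.354), and 7 of 10 genes were higher at the adjusted threshold, namely Osm, Socs3, Osmr, Stat3 and the 3 other receptors, beside 53.2% of all tested probes called, nearly all of them higher (16314 up and 674 down). The distance of a gene from the median of all tested probes is the same with the 75th percentile and without scaling, since a constant is subtracted from each array, and only quantile normalization could change it. Il6 lay at -0.96 from that median with the 75th percentile and -1.10 after quantile normalization, Il11 at -0.999 and -1.12, and Lif at -0.95 and -0.90. Lifr stood 2.00 above it with the 75th percentile and 1.86 above it after quantile normalization. The fall of the 3 ligands was therefore measured relative to the other RNAs of the tumor.

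**Figure D4:**
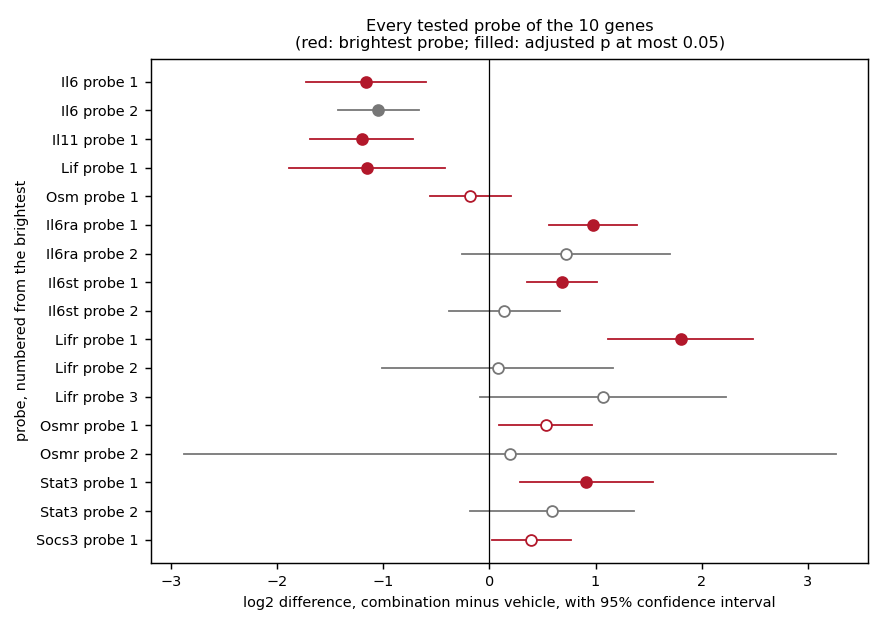
Difference between combination and vehicle for each of the 17 tested probes of the 10 genes, on the log2 scale, with 95% confidence intervals. Probes of a gene are numbered from the brightest, which is drawn in red, and filled points have an adjusted p of at most 0.05. Of the 7 dimmer probes, the one for Il6 is filled, and the others have intervals that include 0.

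A single library weighed on the count of called genes. Without combination replicate 2, limma called 0 of the 10 genes and 0 of all tested probes, with 5 genes at an unadjusted p at or under 0.05. The adjusted p of the 7 genes then ran from 0.0764 (Lifr) to 0.199 (Stat3), and each kept its direction. Without any other single array 5 or 6 genes were called, beside 18.6% to 26.9% of all tested probes. Il6, Il11, Il6ra and Lifr were called with each of the other 7 arrays left out in turn, Il6st in 6 of these 7 fits, Lif in 3 and Stat3 in 1. For Stat3 that was the fit without vehicle replicate 2.

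Markers of some cell types also changed in the combination. The counts of called markers stand beside the 32% of all tested probes called in the combination (2904 up and 7313 down). Of the 10 epithelial markers, 6 were tested and 2 fell, Krt18 and Cdx2, a share near that of all probes. The mean level of the 6 was -0.21 and -0.14 in vehicle, -0.77 and -0.68 with anti-PD-1, -1.20 and -0.94 with TP-16, and -1.29 and -1.52 in the combination. The members did not move alike. Krt20, the brightest of the 6, was at 5.93 and 6.20 in vehicle and at 6.33 and 5.79 in the combination, and Cdh1 differed by 0.82 (adjusted p = 0.220). Krt8 was at -0.75 and -2.07 in vehicle and at -3.63 and -4.56 in the combination, without passing the adjusted threshold. Cdx2 was not well above background on the combination arrays and was at least 6.90-fold lower there than in vehicle, the 1 group in which both arrays were above background, so that its fall was favored by the brightness filter. Without Cdx2 the mean of the other 5 was 0.18 and 0.19 in vehicle and -0.48 and -0.75 in the combination, a difference of -0.80 in place of -1.23. Fibroblast markers rose in 6 of 10, with a mean level of 3.67 and 3.45 in vehicle and 4.31 and 4.56 in the combination. Macrophage and monocyte markers rose in 6 of 10 and fell in 1 (Cd14), with means of 3.995 and 4.18 against 4.57 and 4.87. T-cell markers rose in 5 of the 9 tested, with means of -1.50 and 0.51 in vehicle and 1.74 and 2.46 in the combination. The T-cell means were 1.44 and 1.06 with TP-16 and 1.37 and 1.01 with anti-PD-1, also above both vehicle arrays. No T-cell marker passed the adjusted threshold with either agent alone. Vehicle replicate 1, where Stat3 was low, was also the array with the lowest T-cell mean. Neutrophil markers had means of -0.78 and 0.17 in vehicle and -0.38 and -0.26 in the combination, and of 9 tested 0 rose and 2 fell (S100a8 and S100a9), under the share of all probes. Ly6g and Camp, which differed by 1.09 and 1.30 (adjusted p = 0.318 and 0.115), passed after quantile normalization, where 2 rose and 2 fell, and with no scaling 2 rose and 0 fell. Ly6g was well above background on only 2 of the 8 arrays, so at most 1 of the compared groups had a measured signal. Its difference and its call therefore rest on signal at background, and the brightness filter can have favored its rise. Markers rose in 1 of 8 for endothelium and 2 of 8 for fat, and none of the 8 for skeletal muscle or of the 4 tested for skin passed. Skin markers were high on TP-16 replicate 2 and anti-PD-1 replicate 2 (2.81 and 2.79, against -1.29 to 0.53 on the other 6 arrays). Without combination replicate 2 none of the listed markers was called. The part of these cells in the changes of the 10 genes was not tested.

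The other cytokines and receptors of the gp130 family did not move as 1 block. Of 12 genes 10 were tested, and in the combination 3 rose and 2 fell, beside 32% of all tested probes called in either direction, with a median of 0.15 beside -0.20 for all tested probes. Without vehicle replicate 1 the median was -0.04, with 1 gene up and 2 down beside 26.9% of all tested probes, and with no scaling 7 rose and 1 fell beside 53.2%. Il27ra, the receptor chain of interleukin 27, was at -1.17 and -0.86 in vehicle and at 0.41 and 0.89 in the combination, a rise of 1.67 (SE 0.22, adjusted p = 0.0102). Ebi3, a subunit of interleukin 27, rose by 1.41 (adjusted p = 0.0274), and Cntf, ciliary neurotrophic factor, by 0.34 (adjusted p = 0.0493). Il27, the gene of the other subunit of interleukin 27, did not pass. It was at -0.93 and -0.78 in vehicle and at -1.11 and -1.01 in the combination. Ctf1, which encodes cardiotrophin 1, a ligand of the LIF receptor, fell from -1.69 and -1.41 to -2.58 and -2.72 (a difference of -1.10, adjusted p = 0.0105). Its relative Ctf2 was not well above background on the combination arrays and was at least 3.05-fold lower there than in vehicle. It passed the brightness filter only through the vehicle arrays, so that its fall was favored by the filter, and without it and Il31ra, which passed only through the combination, 3 of the genes rose and 1 fell.

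Among kinases, phosphatases, inhibitors and other STATs, 25 of 26 genes were tested. In the combination 10 rose and 2 fell, beside the same 32% of all tested probes, and the median was 0.43. With no scaling 22 rose and 0 fell, beside 53.2% of all tested probes called, 16314 up and 674 down. Stat4, which acts downstream of interleukin 12, was at -2.68 and -1.47 in vehicle and at -0.06 and 0.47 in the combination, a rise of 2.28 (SE 0.41, adjusted p = 0.0144). Both combination arrays lay above both vehicle arrays. Stat2, which acts in type I interferon signaling, rose by 1.83 (adjusted p = 0.0126). The inhibitor Socs1, which restrains interferon signaling, rose by 1.11 (adjusted p = 0.0179), and Cish, an inhibitor of STAT5 signaling, by 1.39 (adjusted p = 0.0150), while Socs2 fell by 0.77 (adjusted p = 0.0144). Tyk2, a kinase used by gp130, rose by 0.85 (adjusted p = 0.0184), and Ptpn6, a phosphatase of blood cells, by 1.20 (adjusted p = 0.0450). The levels of Ptpn6 were 1.80 and 2.72 in vehicle, the lower on replicate 1, and 3.25 and 3.68 in the combination.

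Genes known to be induced through STAT3 moved in both directions on this scale. Of 36 tested genes out of 37, 11 rose and 6 fell in the combination, beside 32% of all tested probes, with a median of 0.24. The split was 12 up and 3 down after quantile normalization, beside 25.4% of all tested probes, and 22 up and 1 down with no scaling, beside 53.2%. Icam1, an adhesion molecule that interferon also induces, rose by 1.96 (adjusted p = 0.0158) and the protease gene Mmp2 by 1.66 (adjusted p = 0.0349). Arg1, a macrophage arginase, rose by 1.39 (adjusted p = 0.0211), Batf, a lymphocyte transcription factor, by 1.27 (adjusted p = 0.0285) and Fos by 1.25 (adjusted p = 0.0102). The cytokine gene Il10 and the kinase gene Pim2 were not well above background in vehicle and were at least 1.70-fold and 1.64-fold higher in the combination (adjusted p = 0.0181 and 0.0102). Fgb, the acute phase gene for the fibrinogen beta chain, was well above background only on the 2 vehicle arrays and was at least 2.49-fold lower in the combination. As for Ctf2, the filter favored its fall, and without it 11 genes rose and 5 fell. S100a8 and S100a9, 2 of the 6 genes that fell, are also neutrophil markers in the list above. With either single agent 0 genes of the 3 lists passed the adjusted threshold. At an unadjusted p at or under 0.05, the lists in the order given here had 6, 9 and 5 genes for TP-16 and 4, 7 and 11 for anti-PD-1, of 10, 25 and 36 tested, beside 25.9% and 14.5% of all tested probes. Without combination replicate 2 no gene of the 3 lists was called in the combination either, and without combination replicate 1 the kinase and inhibitor list had 7 calls and the STAT3-induced list 11, beside 18.6% of all tested probes.

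**Figure D5:**
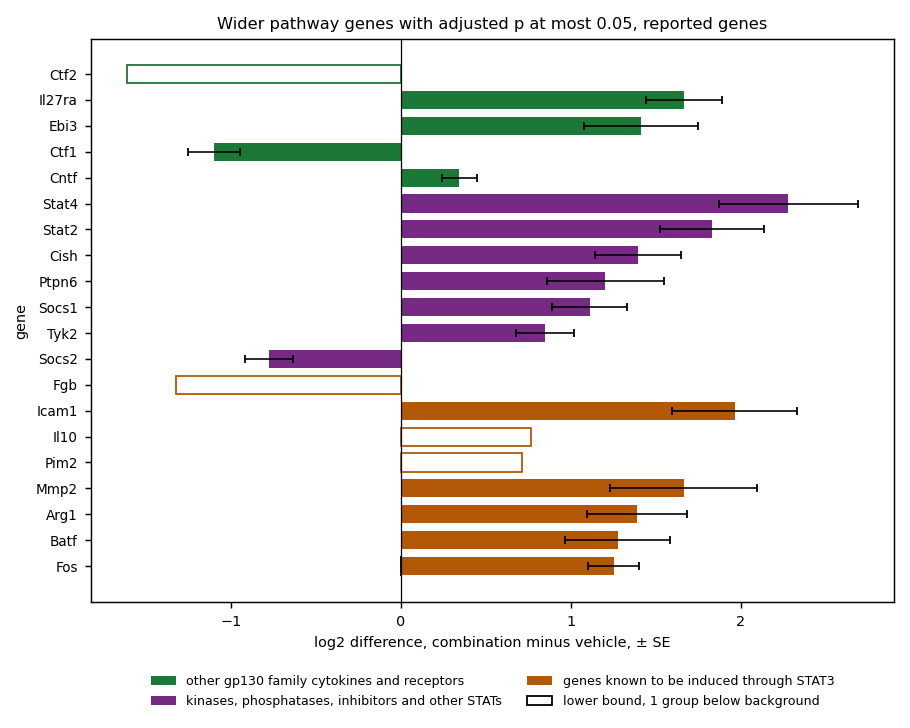
Difference between combination and vehicle for the reported genes of the wider pathway with an adjusted p of at most 0.05, on the log2 scale, with bars of 1 SE. Open bars are lower bounds for genes that were not well above background in 1 of the groups, and those of Ctf2 and Fgb passed the brightness filter only through vehicle. Of the genes drawn, Stat4 has the longest bar to the right (2.28) and Ctf1 the longest solid bar to the left (-1.10).

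Genes with a pattern like that of Il6, Osm, Stat3 and Socs3 over the 8 arrays were taken from 14415 tested genes by Pearson's r, as a description without a test. For Stat3 they were Gsdmd, the pore-forming protein of pyroptosis (r = 0.993), Lag3, an inhibitory receptor of T cells (r = 0.990), and Tapbpl, which takes part in peptide loading (r = 0.989). For Il6 they were Olfr398 (r = 0.996), Shq1 (r = 0.984) and Zic5 (r = 0.982). For Socs3 they were Fam13a (r = 0.963), Crispld2 (r = 0.953) and the Fc receptor gene Fcer1a (r = 0.948), and for Osm the clock gene Ciart (r = 0.965), Fam160b1 (r = 0.939) and Dlg4 (r = 0.925). The 8 points of each r share treatment groups and the scaling of each array.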

How the data were processed

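Total RNA from CT26 tumors of 4 treatment groups, with 2 samples in each, was hybridised to 8 Agilent arrays in 1 colour. The authors deposited scanner files in which Agilent Feature Extraction 10.7.1.1, per the submitters' processing notes, had corrected the spot intensities for background and spatial trends. A table of log2 values that the authors deposited as well, made with GeneSpring by a normalization of unstated kind, served as an alternative. RNA extraction is given as TRIzol in the methods and as a column kit in the labels.

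Control spots and spots marked as outliers (959) were removed, 38 probes left without a usable spot on some array were dropped, and the spots of each probe were averaged. Log2 intensities less the log2 of the array's 75th percentile were tested with limma 3.58.1 in R 4.3.3, with 1 mean per group over all 8 arrays and no block (4 residual degrees of freedom). A probe was tested when it stood well above background on both arrays of any 1 group, and Benjamini-Hochberg adjustment ran over all 31912. The methods' threshold, with limma's p, and the methods' t-test were run beside it. The members, gene lists and tests were chosen with earlier results of these data known. Every tested probe of the 10 genes is described, with at most 8 genes per wider list past adjusted p in the combination (largest differences), and the 3 genes most correlated with each of Il6, Osm, Stat3 and Socs3. The values of 1 gene of a wider list are not reported here. A lower bound set a group below background to the higher of the probe's own signal and the dimmest signal above background on each array.

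Alternatives were quantile normalization, normexp with an offset of 50, the authors' values, 2 other filters, the mean of a gene's probes, a replicate block, a fit of only the groups compared, trended and robust moderation, the t-test, each array left out and, chosen after seeing the data, no scaling. Slide could not be a block, because the slide was the same for all arrays. Simulated data with known differences were used to test the calculations. Figures were drawn in Python 3.11.15 with matplotlib 3.10.9.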

Additional observations from a re-analysis of the deposited data

How the results depend on the processing

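For the combination against vehicle, 7 of the 10 genes were called with the adjusted p. Normexp and trended and robust moderation each gave 9 (6 higher, 3 lower, with Osmr and Socs3 added). Testing all probes gave 4, the mean of a gene's probes 3 (Il6, Il11 and Lif, all lower), and a fit of the compared groups only or the methods' t-test 0 (7 and 3 at an unadjusted p at or under 0.05). Leaving out 1 array in turn gave 0 to 6, with 0 only without combination replicate 2. Quantile normalization gave 7, with Socs3 called and Lif not. For TP-16 against vehicle, normexp gave 3 genes (Il6, Il11 and Lif, lower), trended and robust moderation 1 (Il11, lower) and no scaling 4 (all higher), in place of 0. For the combination against anti-PD-1, normexp and no scaling each gave 6, trended and robust moderation 3 and the filter on all arrays 1, in place of 0. The other comparisons stayed at 0 under each alternative run. The departure from additivity, which uses all 4 groups, was not run with the t-test or with a fit of fewer groups. No called difference changed direction. The causes of the changed counts were not tested.

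With the replicate number as a block, 7 genes were called for the combination and 0 in each other comparison. Same-numbered arrays did not deviate together in every pair of groups (correlations of -0.19 to 0.29), so the numbers were not taken to pair the samples. The probes of the 10 genes called with the 75th percentile were well above background on all 8 arrays.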
